A study of Rattus norvegicus with 9 samples.

Results

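The genes of the cell division cycle were followed in rat femur, a bone whose marrow holds dividing blood cell precursors. The set is a list of 40 genes chosen by symbol, split here by role into 17 genes of S phase and DNA replication, 22 genes of G2 phase and mitosis, and Ccna2, whose cyclin acts in both. Of the 40, 37 had a row in the table of 32623 rows (15 S phase genes, 21 mitosis genes and Ccna2), each symbol on 1 row, and all 37 passed the filter on low values. E2f1, Chek1 and Ccnb2 were not analysed here. The rule itself used no measured value, but the genes were chosen with earlier results of these data known.

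Poly(A) RNA from femora of rats labelled WT was sequenced in 9 libraries, 3 in each of 3 groups. One group was labelled SD rat with no treatment named (control), one held ovariectomized rats, whose ovaries were taken out, and one held rats treated with Desertliving Cistanche, a herb (treated). By the series title the treated rats were ovariectomized too, a model of bone loss after menopause, while the sample labels of that group name only the herb. The sources used here do not give age, dose, duration or a sham operation. Nor do they say that libraries came from different animals, so p-values measure the spread between these libraries, which may be technical.

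A dividing cell copies its DNA in S phase and distributes the copies in mitosis, and most genes needed for each step are transcribed shortly before it. S phase genes are largely driven by E2F factors released from the retinoblastoma protein by cyclin-dependent kinases, and include the MCM helicase, its loaders, the polymerase clamp Pcna and the enzymes that make DNA precursors. Genes of G2 phase and mitosis follow under B-MYB, FOXM1 and NF-Y, and encode cyclin B with its kinase Cdk1, spindle motors, kinetochore proteins and the machinery that degrades cyclins. In marrow these genes mark dividing erythroblasts, granulocyte precursors and lymphocyte precursors far more than resting bone cells.

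The promoters of the genes carry letters known for each arm of the cycle, and 6 are shown as examples of these letters, 3 of S phase genes (Tyms, Mcm2 and Mcm6) and 3 of mitosis genes (Cdk1, which holds all 3 kinds, Cdc20 and Ccnb1). RefSeq promoter windows on GRCr8 matched 28 of the 37 genes by symbol (Ccne2, Cdc6, Mcm4, Rrm2, Foxm1, Aurkb, Ube2c, Tpx2 and Ccna2 had no match), and the 250 bases before each start were searched on both strands. Capitals mark E2F motifs (TTTGGCGC, TTTCCCGC, TTTCGCGC or TTTGCCGC), the CHR element (TTTGAA or TTCGAA) and the CCAAT box (CCAAT), each on either strand. Sequences run 5′ to 3′ on the gene's strand, and base -1 is the last before the start.

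Tyms, chr9:120776084-120776173, minus strand, bases -90 to -1: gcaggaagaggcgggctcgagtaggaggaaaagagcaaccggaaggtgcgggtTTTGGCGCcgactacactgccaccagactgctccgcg

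Mcm2, chr4:122918095-122918154, minus strand, bases -60 to -1: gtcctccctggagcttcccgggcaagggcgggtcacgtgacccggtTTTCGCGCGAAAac

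Mcm6, chr13:42404383-42404502, minus strand, bases -150 to -31: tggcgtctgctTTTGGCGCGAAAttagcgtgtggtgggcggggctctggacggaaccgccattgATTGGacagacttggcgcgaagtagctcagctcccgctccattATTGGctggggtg

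Cdk1, chr20:19265153-19265292, plus strand, bases -140 to -1: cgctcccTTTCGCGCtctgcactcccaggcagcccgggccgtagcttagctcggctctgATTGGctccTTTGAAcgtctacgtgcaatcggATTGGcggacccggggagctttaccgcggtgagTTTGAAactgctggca

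Cdc20, chr5:137255830-137255894, minus strand, bases -95 to -31: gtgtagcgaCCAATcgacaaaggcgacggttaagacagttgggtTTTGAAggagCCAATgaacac

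Ccnb1, chr2:33655256-33655320, minus strand, bases -95 to -31: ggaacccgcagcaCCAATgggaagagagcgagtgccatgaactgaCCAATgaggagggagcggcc

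In Mcm2 and Mcm6 the capitals join an E2F motif on one strand with an overlapping one on the other, and each such promoter counts once. Mcm2 also has CHR elements at -215 and -175, outside the stretch shown. An E2F motif stood in 5 of 11 S phase promoters (45.5%: Mcm2, Mcm5, Mcm6, Mcm7 and Tyms) and in 1 of 17 mitosis promoters (5.88%: Cdk1), beside 2.28% of 19005 protein-coding promoters. The CHR element was found in 3 of 11 S phase promoters (27.3%) and 7 of 17 mitosis promoters (41.2%), beside 16.5% of all. CCAAT boxes were found in 72.7% and 82.4%, beside 35.5%. A CHR element together with at least 2 CCAAT boxes, as in Cdk1 and Cdc20, occurred in 5 mitosis promoters (29.4%), 1 S phase promoter (9.09%) and 1.95% of all. These are matches of letters in 1 window per gene and were not tested.

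Libraries held 54992823 to 66531156 counts. The 37 genes had 2409 to 95309 counts per library, and at 2409 counts sampling alone gives an SD of 2.04%. Tissue markers were present in all 9 libraries: Col1a1, the main bone collagen, had 1064 to 6357 CPM (counts scaled to equal library size with TMM factors), the red cell factors Gata1 and Klf1 had 47.4 to 73.2 and 118 to 211 CPM, and Mpo of granulocyte precursors had 1893 to 4183 CPM. Control replicate 2 stood apart. Haemoglobin genes took 16.2% of its counts and 6.89% to 10.6% of the counts of the other 8, and its erythroid score (mean log2 CPM of 19 marker genes relative to the 9 libraries) was 0.56 against at most 0.11 elsewhere.

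Between genes, levels are compared in FPKM, which the authors scaled for length and depth. The clamp protein gene Pcna was the most abundant member, at 201 ± 18.3 FPKM (mean ± SD over the 9 libraries), followed by the proliferation marker Mki67 at 111 ± 19.1, the helicase subunit Mcm7 at 103 ± 8.71 and the DNA topoisomerase Top2a at 96.0 ± 7.49. Each of the last 3 lay within 1 SD of its neighbour in that order. Mcm2 to Mcm7 encode the subunits of 1 ring, present in equal number in the loaded helicase. Their transcripts were not at equal FPKM: after Mcm7 came Mcm2 (79.2 ± 5.40), Mcm6 (61.5 ± 5.72), Mcm4 (60.1 ± 5.21), Mcm5 (59.7 ± 3.90) and Mcm3 (56.9 ± 3.64), each of the last 4 within 1 SD of its neighbour in that order. Mcm7 overlaps microRNA genes in the table.

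At the other end stood Cdc45, the helicase activator, at 7.99 ± 0.866 FPKM, below the large kinetochore motor Cenpe at 13.4 ± 2.19, the checkpoint kinase Ttk at 14.8 ± 2.24 and Cenpf at 15.1 ± 2.83. The mitotic kinases Aurka and Aurkb were close, at 32.1 ± 1.70 and 31.3 ± 2.004 FPKM, and so were the checkpoint genes Bub1 and Bub1b, at 26.8 ± 2.80 and 26.9 ± 2.33. Of the chromosomal passenger genes beside Aurkb, Birc5 stood at 55.8 ± 4.77 and Cdca8 at 43.0 ± 2.84. Of the E cyclins, Ccne1 was at 44.6 ± 7.18 and Ccne2 at 18.6 ± 3.18 FPKM. Overlapping neighbours (Ints8 for Ccne2, Exosc9 for Ccna2, Cdc23 for Kif20a, Cldn5 for Cdc45) could share reads, since strand use in counting is not stated.

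**Figure D1:**
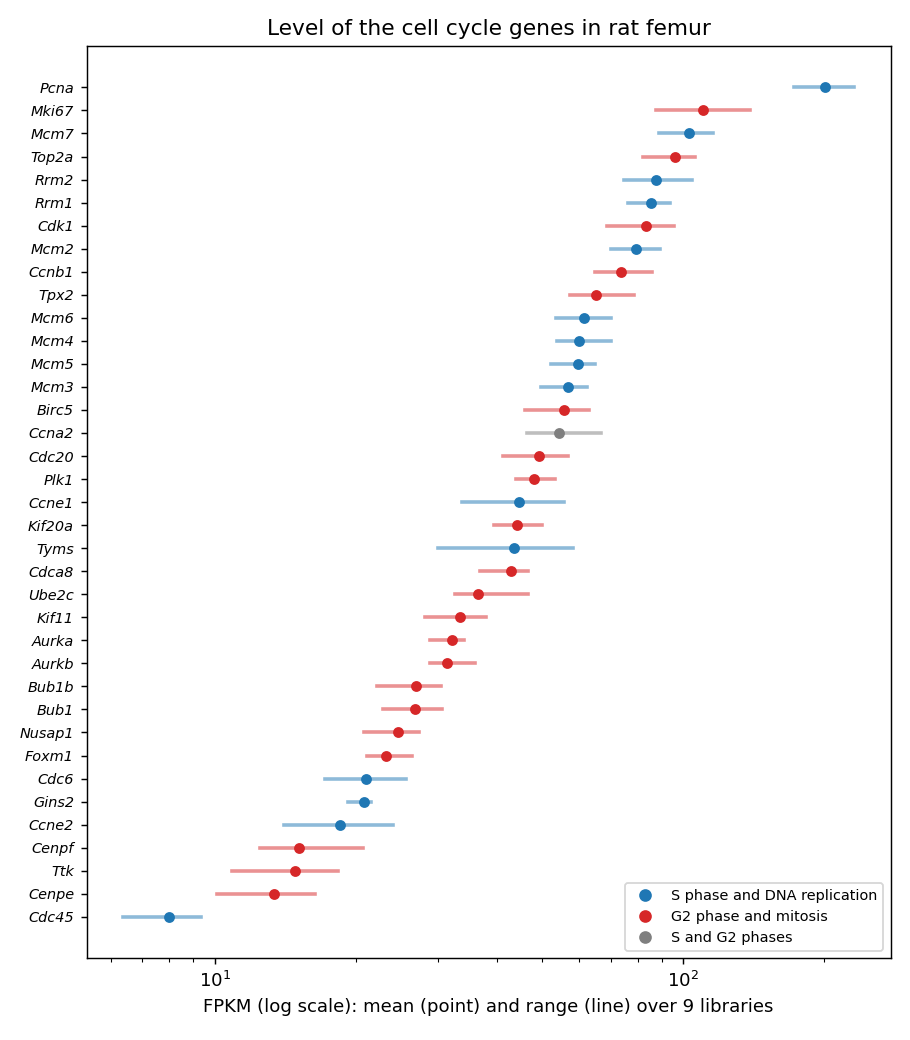
Mean FPKM (points) and the range over 9 libraries (lines) of the 37 cell cycle genes, on a log axis, coloured by role. Pcna is highest at 201 FPKM and Cdc45 lowest at 7.99 FPKM, and S phase and mitosis genes are interleaved along the order.

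Between libraries the genes moved together and by little. The highest library exceeded the lowest by 1.18-fold (Gins2, a subunit of the helicase complex) to 2.09-fold (Tyms, thymidylate synthase). All 37 genes had their highest CPM in control replicate 2, where 15.5% of all 13886 tested genes did. In FPKM some peaked in another library. Mki67 was at 135 FPKM in control replicate 2 and 139 FPKM in control replicate 3. Top2a was at 104 FPKM in control replicate 2 and 106 FPKM in treated replicate 2. Control replicate 1 held the lowest CPM for 17 of the 37 genes (6 S phase, 11 mitosis), beside 13.9% of all genes. Treated replicates 1 and 3 held the lowest for 7 each, beside 13.5% and 10.4% of all genes. All 7 in treated replicate 1 were S phase genes.

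**Figure D2:**
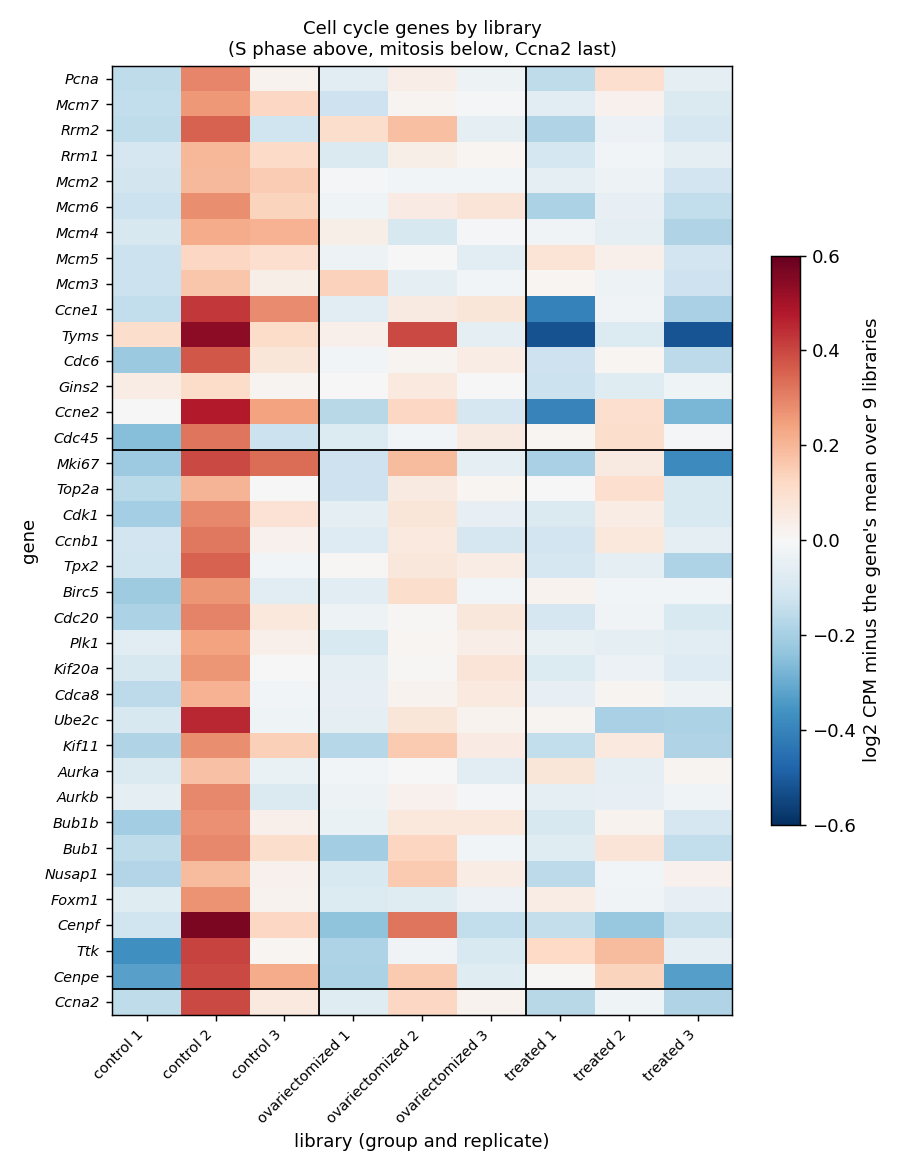
Log2 CPM of each gene minus its mean over the 9 libraries (colour), with S phase genes above the first line, mitosis genes below it and Ccna2 last. The column of control replicate 2 is red throughout, control replicate 1 is blue in most rows, and Tyms, Ccne1 and Ccne2 are darkest blue in treated replicate 1.

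Control libraries therefore set most of the spread. The median within-group SD of log2 CPM in controls was 0.21 for S phase and 0.24 for mitosis genes, beside 0.18 for all genes tested. In ovariectomized libraries it was 0.066 and 0.072 beside 0.14, and in treated libraries 0.073 and 0.069 beside 0.15. The fixed examples show it. Mcm2 was at 250, 309 and 300 CPM in control replicates 1 to 3, at 268, 267 and 267 CPM in ovariectomized and at 259, 264 and 249 CPM in treated replicates. Cdk1 was at 106, 150 and 130 CPM in controls, at 118, 129 and 118 CPM in ovariectomized and at 115, 126 and 115 CPM in treated rats. Top2a was at 500.4, 645 and 561 CPM, then 514, 582 and 564 CPM, then 560.4, 600.1 and 526 CPM in the same order. In each the controls spread widest, with replicate 2 on top. Plk1, at 108, 133 and 114.5 CPM in controls, lay between 106 and 115 CPM in all 6 other libraries. Within groups Gins2 was the steadiest member (pooled SD 0.045) and Cenpe the most variable (0.28), with Cenpf at 0.27, Mki67 at 0.25 and Tyms at 0.25.

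S phase and mitosis were set against each other by a score for each, the mean log2 CPM of its genes relative to the 9 libraries. The S phase score was -0.11, 0.29 and 0.092 in control replicates 1 to 3, -0.024, 0.053 and -0.0062 in ovariectomized replicates and -0.15, -0.0013 and -0.14 in treated replicates. The mitosis score in the same order was -0.16, 0.31 and 0.046, then -0.094, 0.075 and -0.0084, then -0.056, 0.0002 and -0.11. Both scores put control replicate 2 on top, and neither separated the groups.

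The difference of the scores, S phase minus mitosis, was 0.053, -0.016 and 0.045 in controls, 0.070, -0.022 and 0.0023 in ovariectomized rats and -0.094, -0.0015 and -0.036 in treated rats. Means with SD were 0.027 ± 0.037, 0.017 ± 0.048 and -0.044 ± 0.047 (n = 3 each). All 3 treated libraries lay below 0, but their range overlapped those of both other groups. The largest gap was that of treated replicate 1. In treated replicate 1 the granulocyte precursor score was at its highest, 0.54, and the erythroid score at its lowest, -0.35. The next highest granulocyte precursor score, 0.29, was that of control replicate 1, where S phase minus mitosis was 0.053. The next lowest erythroid score, -0.28, was that of treated replicate 3, where S phase minus mitosis was -0.036. The part of either in the result was not tested.

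**Figure D3:**
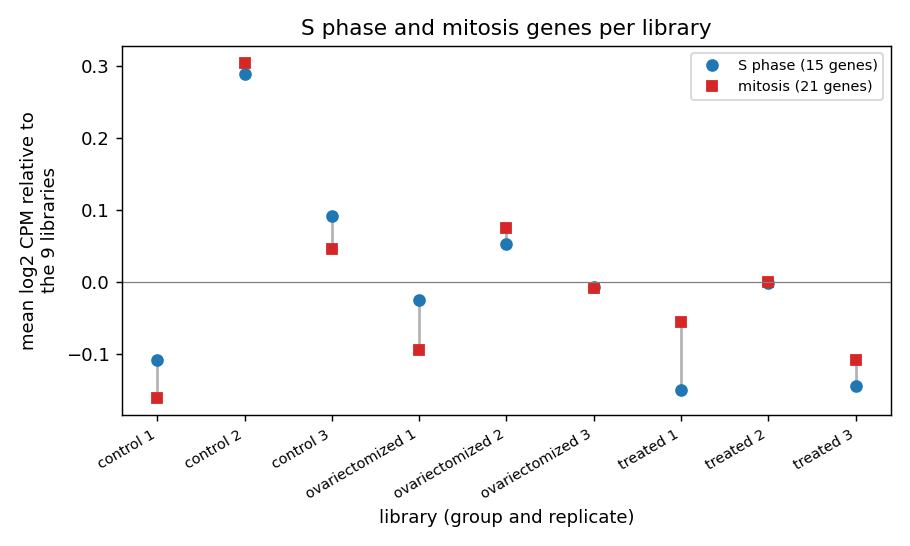
Mean log2 CPM relative to the 9 libraries for 15 S phase genes (circles) and 21 mitosis genes (squares) in each library, joined by a grey line. Both marks are highest in control replicate 2 (0.29 and 0.31), and the circle lies furthest below the square in treated replicate 1.

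Whether these genes differ once the ovaries are lost was asked by comparing ovariectomized with control rats. None of the 37 passed at an adjusted p under 0.05 in edgeR, where 0% of all 13886 genes passed, and at an unadjusted p under 0.05 there were 0 members against 5.05% of all genes (1.72% lower, 3.33% higher). DESeq2 called 0 members as well, though it called genes outside the set, counted in the closing section. At an unadjusted p under 0.05 it had 0 members beside 6.58% of all genes. Estimates lay below 0 for 34 of 37 genes, beside 51.3% of all genes, with a median log2 fold change of -0.086 for S phase and -0.075 for mitosis genes against -0.0037 for all genes tested. That count rested on 1 library: without control replicate 2 it was 15 of 37, and the medians were -0.022 and 0.052. Without control replicate 1 it was 37 of 37, with 10 at an unadjusted p under 0.05 beside 7.02% of all genes. Fewer dividing cells and less RNA per dividing cell cannot be told apart in bulk RNA.

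Among S phase genes the lowest estimate was that of Ccne2, a cyclin that opens S phase. Its CPM was 58.0, 80.7 and 68.5 in control replicates 1 to 3 and 51.7, 63.2 and 54.2 in ovariectomized replicates, so that the groups overlapped. The log2 fold change was -0.29 ± 0.16 (SE), with a 95% interval of -0.66 to 0.08 and an edgeR adjusted p of 0.999. The helicase subunit Mcm4 was at 196, 244 and 242 CPM in controls and 214, 196 and 208 CPM in ovariectomized rats, a log2 fold change of -0.14 ± 0.10. Pcna was at 219, 299 and 247 CPM and then 232, 250 and 238 CPM (-0.09 ± 0.12). Ccne1 was at 81.4, 121 and 110 CPM and then 86.3, 93.7 and 94.9 CPM (-0.18 ± 0.15), and Mcm2 was at -0.10 ± 0.08. In Ccne2, Mcm4, Pcna and Ccne1 the ovariectomized libraries sat inside or below the wide control range.

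Rrm2, the small subunit of ribonucleotide reductase, was the 1 S phase gene with an estimate above 0. It had 96.0, 136 and 98.3 CPM in controls and 115, 121 and 103 CPM in ovariectomized rats, a log2 fold change of 0.03 ± 0.14. Without control replicate 2 it was at 0.21, and was then the 1 member at an unadjusted p under 0.05, beside 5.6% of all genes.

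Among mitosis genes the lowest estimate was that of Cenpf, a large kinetochore protein. It had 145, 232 and 171 CPM in controls and 133, 196 and 142 CPM in ovariectomized rats, a log2 fold change of -0.22 ± 0.19 (SE). Mki67, the antigen by which dividing cells are stained, was at 970, 1481 and 1421 CPM in control replicates 1 to 3 and at 1036, 1287 and 1088 CPM in ovariectomized replicates, a log2 fold change of -0.18 ± 0.18 (SE). Foxm1, the transcription factor of G2 genes, was at 79.0, 100.3 and 84.3 CPM and then 78.5, 79.1 and 81.3 CPM (-0.14 ± 0.09). Ccnb1, the cyclin of mitotic entry, was at 114, 153 and 126 CPM and then 117, 128 and 115 CPM (-0.13 ± 0.11). Its kinase Cdk1 was at -0.08 ± 0.12, the mitotic kinase Plk1 at -0.09 ± 0.08 and Top2a at -0.04 ± 0.11. The groups overlapped for all 37 genes, where 8.94% of all genes had groups that did not (3.92% lower, 5.02% higher).

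The intervals bound what these libraries allow. Over the 37 genes the 95% intervals ran from -0.66 to 0.35, so a 2-fold change (1 log2 unit) in either direction lay outside the interval of every member. The erythroid list lay on the lower side beside them, with 18 of 19 tested markers lower and a median of -0.13. It summed to 85850 to 149600 CPM in controls and 68720 to 82320 CPM in ovariectomized rats. The erythroid score overlapped, from -0.069 to 0.56 in controls and from -0.046 to 0.11 in ovariectomized rats. The 0.56 was that of control replicate 2, and control replicates 1 and 3 were at -0.069 and 0.11. Granulocyte precursor markers had 12 of 16 higher (median 0.011), and B lymphocyte precursor markers 13 of 15 higher (median 0.19). Skeletal muscle markers were higher in 12 of 12 cases (median 1.71), summing to 463.2 to 1372 CPM in controls and 1516 to 6574 CPM in ovariectomized rats, and chondrocyte markers lower in 10 of 11 (median -1.85). Adipocyte markers were higher in 12 of 12 cases (median 1.098) and osteoblast markers lower in 11 of 11 (median -0.38). Their part in the result was not tested.

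What the herb changes was asked by setting treated beside ovariectomized rats. The only member at an unadjusted p under 0.05 was Tyms. DESeq2 called 0 members, though it called genes outside the set, counted in the closing section. In edgeR 0 members passed the adjusted threshold, beside 0% of all genes adjusted and 5.2% unadjusted (3.08% lower, 2.12% higher). In all, 30 of 37 estimates lay below 0 (51% of all genes), 13 of 15 among S phase and 16 of 21 among mitosis genes. The medians were -0.073 for S phase and -0.036 for mitosis genes, beside -0.0042 for all genes. On log2(FPKM + 1) the mitosis median was 0.0054, and that of all genes 0.033.

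Tyms makes thymidylate, the precursor used only in DNA (chromosome 9, 121918947 to 121931564 in the deposited table, of unnamed build). It had 69.9, 90.1 and 65.9 CPM in ovariectomized replicates 1 to 3 and 47.6, 64.6 and 47.8 CPM in treated replicates. All treated libraries were lower, although treated replicate 2 lay close to ovariectomized replicate 3. Group means were 75.3 ± 13.0 and 53.3 ± 9.74 CPM (SD, n = 3), and the log2 fold change was -0.50 ± 0.18 (SE) with a 95% interval of -0.91 to -0.09 and an edgeR adjusted p of 0.929. Over 19 alternative settings the estimate ran from -0.66 to -0.34 and the adjusted p from 0.190 to 0.9997, and the unadjusted p was under 0.05 in 17 of 20 settings, the exceptions being without ovariectomized replicate 2, treated replicate 1 or treated replicate 3.

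A further 4 genes had groups that did not overlap, all lower in treated rats: Gins2, Mcm2 and Mcm6 of the replication helicase and the spindle assembly factor Tpx2. With Tyms that makes 5 of 37, beside 6.63% of all genes without overlap and lower, and 0 members higher, beside 5.75%. Mcm6 had 184, 194 and 197 CPM in ovariectomized and 164, 181 and 169 CPM in treated rats (-0.16 ± 0.10 SE). Gins2 had 91.1, 95.01 and 91.3 CPM and then 83.4, 86.8 and 89.7 CPM (-0.09 ± 0.06). Tpx2 had 225, 235 and 231 CPM and then 209, 215 and 197 CPM (-0.15 ± 0.12). The steps were small, and the edgeR adjusted p was 0.945, 0.945 and 0.949.

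Ccne1 overlapped between the groups, with 86.3, 93.7 and 94.9 CPM in ovariectomized and 68.1, 88.8 and 78.9 CPM in treated rats (-0.22 ± 0.15). The largest estimate above 0 was that of Ttk, the kinase that starts the spindle checkpoint, with 45.7, 51.2 and 48.8 CPM and then 56.4, 59.2 and 49.9 CPM (0.18 ± 0.17). Rrm2 was at -0.18 ± 0.14, Mcm2 at -0.05 ± 0.08 and Pcna at -0.01 ± 0.12. Mki67 was at -0.18 ± 0.18, Plk1 at -0.04 ± 0.08, Cdk1 at -0.03 ± 0.12, Top2a at 0.02 ± 0.11 and Ccnb1 at 0.00 ± 0.11. Mki67, Plk1, Cdk1, Top2a and Ccnb1 were thus within 1 SE of no difference, as were Mcm2 and Pcna, while Rrm2 was not. Erythroid markers were lower in 19 of 19 cases here (median -0.31) and granulocyte precursor markers higher in 16 of 16 (median 0.25). B lymphocyte precursor markers were lower in 12 of 15 (median -0.15). Skeletal muscle markers were lower in 12 of 12 cases (median -1.17), osteoblast markers lower in 10 of 11 (median -0.19) and chondrocyte markers higher in 9 of 11 (median 0.72). Their part in the result was not tested.

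**Figure D4:**
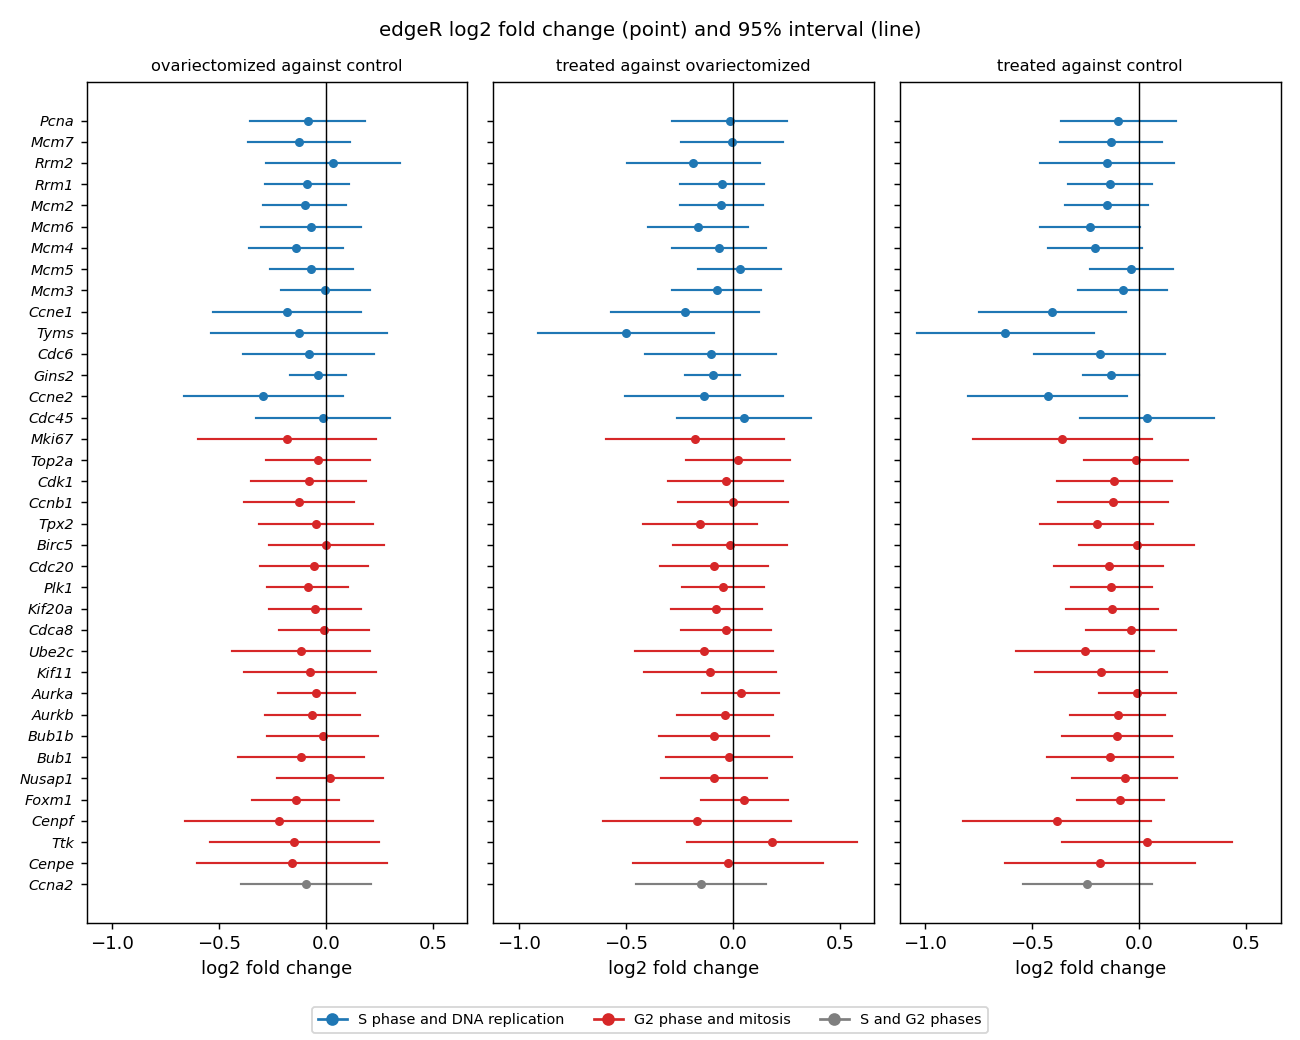
edgeR log2 fold change (points) with its 95% interval (lines) for each gene in the 3 comparisons, S phase genes in blue, mitosis genes in red and Ccna2 in grey. Most points sit slightly left of 0, and intervals that exclude 0 belong to S phase genes, Tyms in the middle panel and Tyms, Ccne1, Ccne2 and Gins2 in the right panel.

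Treated rats were also compared with controls, which shows where the treated femur stood relative to the control group. This comparison shares libraries with both others and is no separate support for either. In DESeq2 0 of 37 members again passed the adjusted threshold, though it called genes outside the set, counted in the closing section. In edgeR 0 of 37 passed too, beside 0% of all genes. At an unadjusted p under 0.05 there were 4 members, 4 of 15 S phase and 0 of 21 mitosis genes, all lower, beside 8.81% of all genes in either direction (4.75% lower, 4.05% higher). Estimates lay below 0 for 35 of 37 genes against 50% of all, with medians of -0.15 for S phase, -0.12 for mitosis and 0.00 for all genes. Without control replicate 2 these counts were 2 and 22, the medians were -0.071 and 0.0076, and 8.35% of all genes had such a p. The 2 genes were Tyms, lower, and Cdc45, at 44.6 and 48.7 CPM in control replicates 1 and 3 and higher, at 53.6, 57.2 and 52.8 CPM, in treated rats. Without control replicate 1 they were 20 and 37, beside 14.6% of all genes at such a p.

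Tyms again had the largest difference, with 73.5, 99.3 and 73.9 CPM in controls against the 47.6, 64.6 and 47.8 CPM of treated rats. The groups did not overlap. The log2 fold change was -0.63 ± 0.18 (SE), with a 95% interval of -1.04 to -0.21 and an edgeR adjusted p of 0.473. Over 19 alternatives it ran from -0.79 to -0.47, with adjusted p values of 0.0734 to 0.943 and 0.078 in DESeq2, and the unadjusted p was under 0.05 in 20 of 20 settings.

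The E cyclins came next. Ccne1 was at 81.4, 121 and 110 CPM in controls and 68.1, 88.8 and 78.9 CPM in treated rats (-0.41 ± 0.15 SE). Ccne2 was at 58.0, 80.7 and 68.5 CPM and then 44.0, 62.2 and 47.9 CPM (-0.43 ± 0.16). For both, treated replicate 2 lay above control replicate 1, so the groups overlapped, and the unadjusted p was under 0.05 in 14 of 20 settings. Gins2, at 94.2, 98.5 and 92.4 CPM against 83.4, 86.8 and 89.7 CPM, showed no overlap but a small difference (-0.13 ± 0.06), with 8 of 20 settings.

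**Figure D5:**
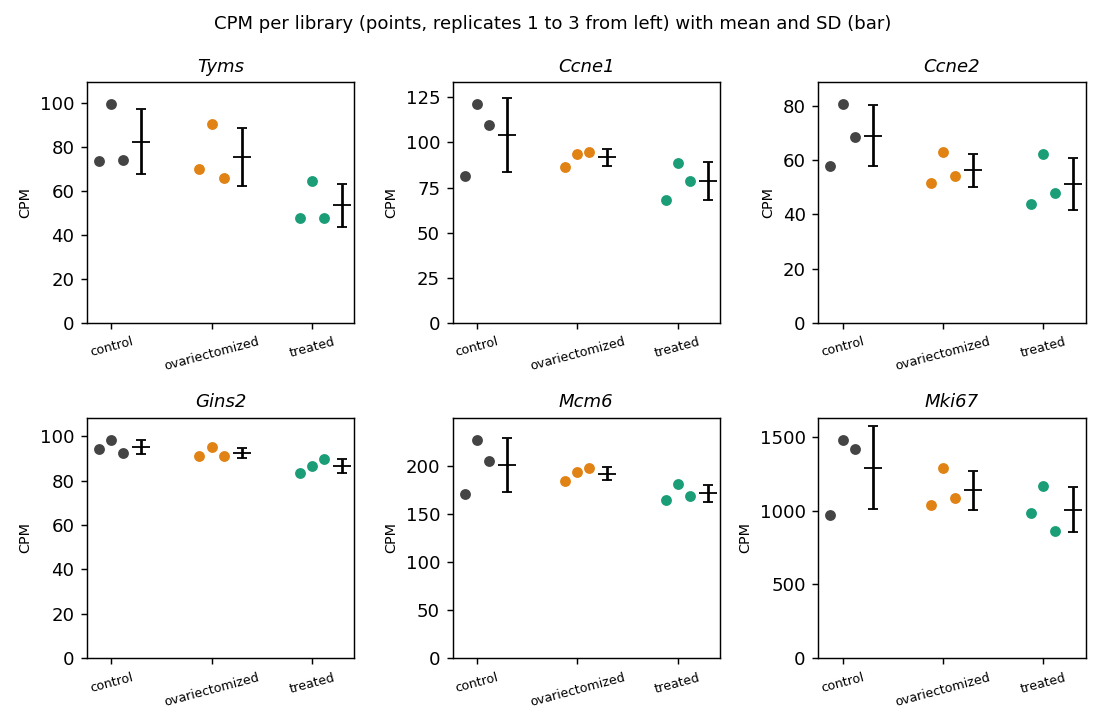
CPM of 6 genes in each library (points, replicates 1 to 3 from left in each group) with the group mean and SD (bars). Treated libraries of Tyms lie at 47.6 to 64.6 CPM, below all controls, while for Ccne1, Ccne2, Mcm6 and Mki67 the treated and control points overlap.

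Within the replication helicase the estimates for treated against control rats were uneven. Mcm6 was at -0.23 ± 0.10 and Mcm4 at -0.20 ± 0.10, against -0.15 ± 0.08 for Mcm2, -0.13 ± 0.10 for Mcm7, -0.08 ± 0.09 for Mcm3 and -0.04 ± 0.09 for Mcm5. Differences between subunits were not tested. The reductase genes Rrm1 and Rrm2 were at -0.14 ± 0.09 and -0.15 ± 0.14, the clamp Pcna at -0.10 ± 0.12, the origin loader Cdc6 at -0.18 ± 0.13 and Cdc45 at 0.04 ± 0.14.

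Among mitosis genes, Cenpf had 145, 232 and 171 CPM in controls and 142, 134 and 143 CPM in treated rats, a difference of -0.38 ± 0.19 (SE). The groups did not overlap, but treated replicate 3 (143.2 CPM) lay just under control replicate 1 (144.6 CPM). Cenpf, Gins2 and Tyms were the 3 of 37 without overlap, all lower, beside 6.78% of all genes without overlap and lower and 6.34% higher. Mki67 was at -0.36 ± 0.18. Ube2c, the ubiquitin enzyme of mitotic exit, had 103, 150 and 108 CPM in controls and 111, 96.0 and 96.3 CPM in treated rats (-0.25 ± 0.14). Plk1 was at -0.13 ± 0.08, Ccnb1 at -0.12 ± 0.11 and Cdk1 at -0.12 ± 0.12. Top2a (-0.02 ± 0.11), Birc5 (-0.01 ± 0.12) and Aurka (-0.01 ± 0.08) were near 0. Ccna2 was at -0.24 ± 0.13.

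Erythroid markers lay lower beside these genes, 19 of 19 with a median of -0.42, and summed to 56620 to 70600 CPM in treated rats. In the library with the lowest Tyms, Ccne1 and Ccne2, treated replicate 1, the erythroid score was also lowest (-0.35). It was highest (0.56) in control replicate 2, where all 37 members had their highest CPM. Control replicate 1, with the lowest CPM of 17 members, had an erythroid score of -0.069. Its B lymphocyte precursor score, -0.68, was the lowest of the 9 libraries. That score was 0.325 in control replicate 2 and highest, 0.46, in ovariectomized replicate 3. No tested erythroid marker was at 0 counts in any library. Granulocyte precursor markers were higher in 16 of 16 cases (median 0.26) and adipocyte markers in 12 of 12 (median 1.08). B lymphocyte precursor markers were higher in 12 of 15 (median 0.066). Skeletal muscle markers were higher in 12 of 12 (median 0.63), while osteoblast and chondrocyte markers were lower in 11 of 11 each (medians -0.65 and -1.06). Their part in the result was not tested.

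The wider cell cycle machinery, 163 other genes in 7 lists of which 158 were tested, held 0 genes past the adjusted threshold in each comparison. At an unadjusted p under 0.05 there were 2 such genes in ovariectomized relative to control rats, 1 in treated relative to ovariectomized and 5 in treated relative to control, all lower, beside 5.05%, 5.2% and 8.81% of all genes. Estimates below 0 numbered 112, 92 and 113 of 158, beside 51.3%, 51% and 50% of all genes, with medians of -0.063, -0.027 and -0.077. Control replicate 2 had the highest score in the origin, G2 checkpoint, kinetochore and spindle lists (0.209, 0.167, 0.282 and 0.295). It was not highest in the nucleotide supply, cell cycle entry and exit lists. Counts of these genes without that library are not given here. For ovariectomized against control rats the 2 were Prim2, a primase subunit (-0.23 ± 0.09), and Umps, which makes uridine monophosphate (-0.19 ± 0.07).

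In treated rats the smallest p of these lists was that of a gene of cell cycle entry. Ccnd2, a D cyclin of early G1, was at -0.33 ± 0.09 against ovariectomized rats (edgeR adjusted p = 0.929) and at -0.37 ± 0.09 against controls (edgeR adjusted p = 0.469), without overlap in either. Groups did not overlap for 11 of the 158 genes against ovariectomized rats, beside 12.4% of all genes. Against controls this held for 10 of the 158, beside 13.1% of all genes. Against controls, the origin recognition gene Orc1 was at -0.46 ± 0.13, the phosphatase Cdc25b at -0.48 ± 0.13, E2f8 at -0.32 ± 0.13 and E2f4 at -0.23 ± 0.09. In the list of cyclin D, kinase, RB and E2F genes 17, 17 and 19 of 21 were lower in the 3 comparisons in that order.

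Among 15 tested genes of cell cycle exit, with kinase inhibitors, p53 targets and BTG factors, estimates of 10 were higher in ovariectomized than control rats (median 0.10), 5 in treated than ovariectomized rats (median -0.067) and 7 in treated than control rats (median -0.053), with 0 at an unadjusted p under 0.05 in each. Cdkn1a, the p21 inhibitor, was at -0.30 ± 0.18 in treated against control rats. It was the 1 gene of these 15 without overlap there, beside 13.1% of all genes. Kinetochore genes outside the 37 were lower in 16, 14 and 16 of 25 cases, and spindle and cytokinesis genes in 32, 23 and 32 of 37, each with 0 at an unadjusted p under 0.05.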

How the data were processed

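The deposited table (32623 rows) gives each gene a raw count and an FPKM in every library, per the file headers. The submitters' processing notes name fastp, HISAT2 and StringTie. Build and counting step: not given in the sources used here. The deposited FPKM is 0.0001 where the count is 0. Rows with a mean of at least 1 FPKM (13886) were tested with edgeR 4.0.16 in R 4.3.3: TMM factors (0.939 to 1.05), 1 quasi-likelihood fit over the 9 libraries, and Benjamini-Hochberg adjustment over all rows (threshold 0.05). SE is the log2 fold change divided by the root of F, and intervals are 95%. CPM uses TMM library sizes, and scores use log2 CPM with a prior count of 2. With 3 against 3, the smallest exact permutation p is 0.1, so single values were not tested that way.

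The members and lists were chosen with earlier results of these data known. Values were given for Mki67, Top2a, Ccnb1, Cdk1, Plk1, Mcm2, Pcna, Rrm2 and Ccne1 and, per comparison, the 3 S phase and 3 mitosis genes with the smallest p, and genes from other cell cycle lists were taken from the 3 with the smallest p in each. Other members are named for their role. Alternatives were other scalings, haemoglobin genes left out, DESeq2 1.42.0, limma 3.58.1 on log2(FPKM + 1) or log2(FPKM + 0.1), no filter or 5 FPKM, a fit of just the 2 groups at issue, robust variance estimation, a block for the replicate number, and leaving out each library. The count of members lower was followed over these settings after seeing the data. On simulated data for ovariectomized against control rats (13886 genes, 100 changed 2-fold and 100 changed 4-fold), edgeR recovered 64% and 90% with 9 false calls. Member log2 fold changes in that comparison ran from -0.29 to 0.03, and the simulation did not cover changes that small. All pairs of libraries differed beyond sampling noise (lowest chi-square per degree of freedom 79.5). Figures used matplotlib 3.10.9 in Python 3.11.15.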

Additional observations from a re-analysis of the deposited data

How the results depend on the processing

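No member passed the adjusted threshold under any of the 19 alternatives in the 3 comparisons. Over all genes, edgeR called 0 in each comparison, whereas DESeq2 called 59, 35 and 153 and a fit of only the 2 groups compared called 2, 1 and 1 (ovariectomized against control, treated against ovariectomized, treated against control, an order kept below). These calls were few beside the 13886 genes tested in edgeR, so 0 of 37 says little about the members. With single libraries left out the calls ran from 0 to 4, from 0 to 2 and from 0 to 3, and members lower from 15 to 37, from 23 to 32 and from 22 to 37, 15 and 22 without control replicate 2. Members at an unadjusted p under 0.05 ran from 0 to 10, 0 to 3 and 1 to 20. The 10 and the 20 came without control replicate 1, where 7.02% and 14.6% of all genes had such a p. On log2(FPKM + 1), members lower were 24, 22 and 27, where edgeR gave 34, 30 and 35. The median of all genes on that scale was 0.038, 0.033 and 0.078. DESeq2 had 0, 1 and 5 members at an unadjusted p under 0.05, beside 6.58%, 6.6% and 10.5% of all genes. Whether the replicate numbers pair the libraries could not be decided with 3 libraries per group. Same-numbered libraries had correlations of their deviations across genes from -0.13 to 0.18, and differently numbered libraries from -0.17 to 0.14. With the number as a replicate block 0 members were called, S phase medians were -0.075, -0.074 and -0.13, and 2, 2 and 7 members had an unadjusted p under 0.05, beside 5.86%, 6.52% and 10.9% of all genes.

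Single estimates were followed for 19 of the 37 members, and the counts of members lower above show that others turned too. Among the 19, in limma on log2(FPKM + 1), and on log2(FPKM + 0.1) in brackets, Top2a, Gins2 and Tpx2 were at 0.011 (0.011), 0.0058 (0.0061) and 0.012 (0.012) for ovariectomized against control rats. Cdk1 and Pcna were at 0.0076 (0.0076) and 0.025 (0.025) for treated against ovariectomized rats, and Top2a and Foxm1 at 0.075 (0.076) and 0.0049 (0.0053) for treated against control rats. Each of these values lay below the median of all genes in its setting. Those medians were 0.038 (0.043), 0.033 (0.037) and 0.078 (0.088) in the order of the comparisons. With single libraries left out, ranges among the 19 crossed 0 for ovariectomized against control rats in Top2a (-0.13 to 0.052), Cdk1 (-0.21 to 0.033), Pcna (-0.19 to 0.035), Rrm2 (-0.062 to 0.21), Tyms (-0.28 to 0.022), Mcm6 (-0.18 to 0.020), Tpx2 (-0.14 to 0.10), Ttk (-0.32 to 0.060) and Ube2c (-0.22 to 0.066). For treated against ovariectomized rats they did so in Top2a (-0.027 to 0.069), Ccnb1 (-0.049 to 0.061), Cdk1 (-0.079 to 0.017), Pcna (-0.085 to 0.044) and Cenpf (-0.27 to 0.034). For treated against control rats they did so in Top2a (-0.097 to 0.084), Ccnb1 (-0.21 to 0.0076), Cdk1 (-0.23 to 0.0077), Pcna (-0.19 to 0.030), Rrm2 (-0.24 to 0.032), Foxm1 (-0.16 to 0.018) and Ttk (-0.13 to 0.25). The cause was not tested.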
